A study of Mus musculus with 6 samples.

Results

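The glutathione transferases followed here are 10 genes, Gsta3, Gsta4, Gstm1, Gstm2, Gstp1, Gstt1, Gstt3, Gsto1, Mgst1 and Mgst3, chosen by symbol among the 30828 to 32285 gene rows of 6 count tables, and all 10 were present in every table. The tables came from droplet single-cell RNA sequencing of mouse lung fibroblasts (FBs) and of organoids, with 1 library per condition, each pooled from 3 mice. For single dosing, Pdgfra-GFP mice received PBS (50 µl) or bleomycin once by the oropharyngeal route, and GFP+ lung cells were sorted 14 days later. The bleomycin dose is 2 U/kg in the protocol label and 4 U/kg in the treatment label. For repetitive dosing, PDGFRa-EGFP mice were dosed weekly, 3 times in all, with PBS or with bleomycin, whose first doses were 1 U/kg each and whose last was 0.5 U/kg, and GFP+ cells were sorted 14 days after the last dose. For organoids, Tomato+ alveolar type 2 epithelial cells (AEC2s) from tamoxifen-induced SpcCreER mice were grown with GFP+ FBs for 2 weeks, at 10 to 1 by the labels. The methods of the study instead describe an excess of FBs, so the ratio is uncertain. Normal FBs came from PBS-dosed and fibrogenic FBs from bleomycin-dosed donors (2 U/kg), harvested on day 14. The GFP reporter follows the Pdgfra promoter, so the lung libraries describe Pdgfra-expressing cells and not all lung FBs.

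Glutathione transferases join the tripeptide glutathione to reactive, electrophilic compounds such as products of lipid peroxidation and drug metabolites. The cytosolic enzymes are grouped into classes, among them alpha (Gsta), mu (Gstm), pi (Gstp), theta (Gstt) and omega (Gsto), and a separate family of membrane proteins includes Mgst1 and Mgst3. Many of their genes are targets of the transcription factor Nrf2, which binds antioxidant response elements. Lipofibroblasts (LipoFBs) are lipid-storing FBs of the alveolar wall that help to maintain AEC2s, and bleomycin injures the lung in part through reactive oxygen.

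In the GRCm38 genome Gsta3 is at chr1:21240589-21265661 (plus strand) and Mgst3 at chr1:167371966-167393841 (minus strand). The mu pair lies close together, Gstm2 at chr3:107981702-107986453 and Gstm1 at chr3:108012255-108017973 (both minus), as does the theta pair, Gstt3 at chr10:75774115-75781414 and Gstt1 at chr10:75783813-75798584 (both minus). Mgst1 is at chr6:138140316-138156755 and Gsta4 at chr9:78182774-78209349 (both plus). Gstp1 is at chr19:4035407-4037985 (minus), near its copy Gstp2 at chr19:4040285-4046023, and Gsto1 is at chr19:47854970-47864790 (plus). Of the stretches of 60 bases in the last 500 bases of the Gstp1 transcripts, 36% also occur in transcripts of Gstp2 or Gstp-ps. The same share was 19.9% for Gstm1, 16.1% for Gstt3, 5.13% for Gstm2 and 0 for the other 6 genes. Some reads of Gstp1, Gstm1, Gstt3 and, less often, Gstm2 could match another gene as well, which makes their levels uncertain. How such reads were counted was not tested.

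RefSeq promoters (GRCm38.p6, 250 bases before to 50 after a start site) matched 9 of the 10 symbols, with 12 promoters. The core of the antioxidant response element (TGACNNNGC, either strand) occurred in 2 of the 12, at Gsta3 and Mgst1, and in 12.4% of all 32851 promoters. An AP-1 motif (TGANTCA, either strand, the same on both) occurred in 1 of the 12, at Gstp1, and in 7.81% of all promoters. No match of either motif overlapped a match of the other in these windows. The upstream parts of the 3 promoters with a match are shown with that of Gstm1, the member whose difference came closest to that of Gsta3. Each is written 5′ to 3′ on the strand of its gene, with motif matches in capitals.
Gsta3, chr1:21240335-21240584, plus strand: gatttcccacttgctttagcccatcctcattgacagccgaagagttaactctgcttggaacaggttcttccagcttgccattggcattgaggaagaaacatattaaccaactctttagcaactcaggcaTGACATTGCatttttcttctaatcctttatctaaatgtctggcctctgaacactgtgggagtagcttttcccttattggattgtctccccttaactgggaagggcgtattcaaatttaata
Mgst1, chr6:138140277-138140526, plus strand: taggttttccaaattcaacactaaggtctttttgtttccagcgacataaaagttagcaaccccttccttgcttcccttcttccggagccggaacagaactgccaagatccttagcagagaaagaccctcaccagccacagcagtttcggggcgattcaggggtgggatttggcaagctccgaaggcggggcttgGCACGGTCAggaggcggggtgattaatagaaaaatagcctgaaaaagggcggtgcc
Gstp1, chr19:4037913-4038162, minus strand: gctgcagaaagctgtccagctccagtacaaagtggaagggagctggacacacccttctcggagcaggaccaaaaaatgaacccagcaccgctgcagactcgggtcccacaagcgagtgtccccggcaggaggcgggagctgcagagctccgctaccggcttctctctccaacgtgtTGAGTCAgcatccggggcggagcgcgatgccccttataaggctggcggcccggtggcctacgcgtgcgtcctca
Gstm1, chr3:108017974-108018223, minus strand: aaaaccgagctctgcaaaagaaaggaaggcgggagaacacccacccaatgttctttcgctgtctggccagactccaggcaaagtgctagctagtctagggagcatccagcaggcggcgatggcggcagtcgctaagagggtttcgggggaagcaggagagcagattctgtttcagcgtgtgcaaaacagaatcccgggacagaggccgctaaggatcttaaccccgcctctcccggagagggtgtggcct
The match began 121 bases before the start site in Gsta3, 56 before it in Mgst1 (on the opposite strand) and 74 before it in Gstp1. The Gstm1 window held neither motif. These matches describe the letters of the windows and not binding.

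Levels are UMIs (unique molecular identifiers, 1 per captured transcript) summed over the cells of a group, as CPM, the count scaled to 1e6 UMIs of that group. Brackets give exact 95% intervals, which cover counting error only. The libraries held 7201081 to 238618743 UMIs in 1015 to 10737 barcodes, with medians of 2478 to 36841 UMIs per barcode. Cells were sorted into types by clustering with the glutathione genes left out, which gave 870 PBS and 759 bleomycin FBs after single dosing, 5376 and 8253 after repetitive dosing, and 1974 normal and 3430 fibrogenic FBs in organoids. In the repetitive bleomycin library 43.7% of barcodes had fewer than 2000 UMIs, against 5.31% in its PBS library. In lung FBs, 6 endothelial markers summed to 7.81 to 13.2 CPM, 6 myeloid markers to 3.98 to 18.7 CPM and 7 epithelial markers to 18.5 to 89.4 CPM. The 5 neutrophil markers summed to 45.1 CPM in the single-dose PBS FBs and to 1.5 to 3.62 CPM in the others. The 4 plasma cell markers summed to 307.9 CPM in the repetitive bleomycin FBs and to 2.6 to 12.5 CPM in the others. The part of these cells in the differences given here was not tested. Between the libraries of 1 experiment, 2 to 28 barcodes were shared. With 1 library per condition there is no spread between mice, so no difference was tested, and a difference of at least 2-fold was counted instead. Fewer cells of a subset and less RNA per cell cannot be told apart in sums over all FBs, so values within subsets follow.

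In lung FBs, Gsta3 and Gstm1 were at least 2-fold lower after bleomycin with either dosing. All 10 members had a ratio below 0 after a single dose, where 44.9% of all genes had, although the sign of Gstt3 turned under other settings. After repetitive dosing 9 of 10 had, where 36.7% of all genes had, and Gstt3 was higher. After a single dose 3 members (Gsta3, Gsta4 and Gstm1) were at least 2-fold lower and 0 at least 2-fold higher, where 3.75% of 10593 genes were that much lower and 7.55% that much higher. After repetitive dosing 3 members (Gsta3, Gstm1 and Gstp1) were at least 2-fold lower and 0 higher, where 1.84% of 15105 genes were that much lower and 6.58% higher. The median log2 ratio (bleomycin over PBS, after adding 1 CPM) of the members was −0.81 after a single dose and −0.57 after repetitive dosing, and that of all genes was 0.06 and 0.11.

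**Figure D1:**
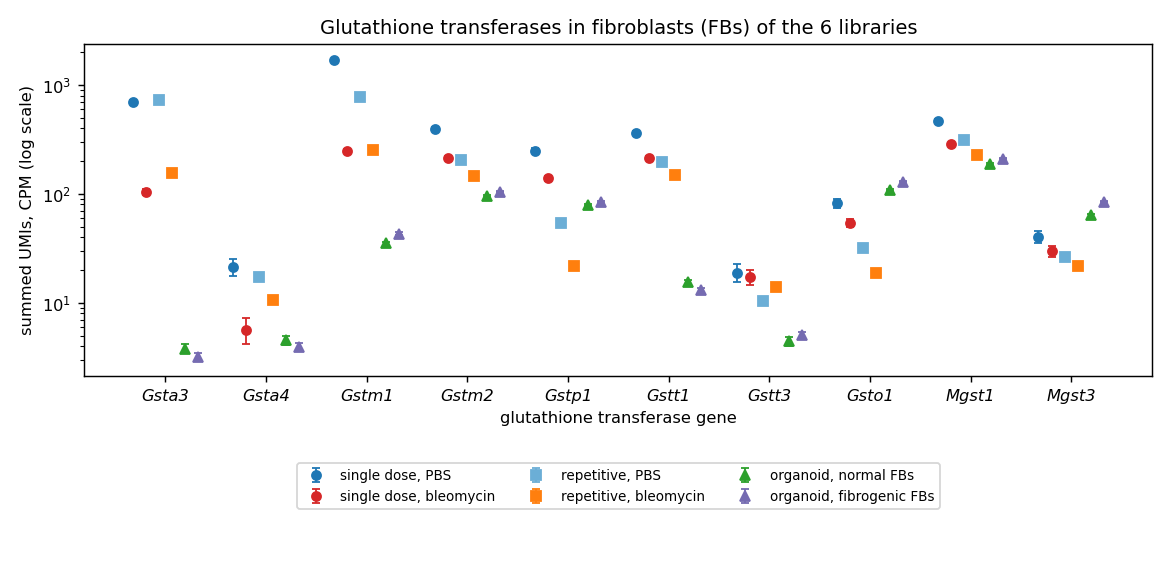
Level of each transferase (CPM of summed UMIs, log scale, bars 95% counting intervals) in the FBs of the 6 libraries, marked by library. Gsta3 lies at 705.6 and 734.2 CPM in the PBS libraries, between 104.7 and 154.7 CPM after bleomycin, and at 3.79 and 3.19 CPM in organoid FBs.

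Of the alpha class, Gsta3 after a single dose was counted at 705.6 CPM [684.4 to 727.2] in the PBS library, and its level after bleomycin was 104.7 CPM [98.3 to 111.3]. After repetitive dosing it stood at 734.2 CPM [727.3 to 741.2] and 154.7 CPM [151.5 to 157.9]. Both bleomycin libraries lay well below both PBS libraries, by log2 ratios of −2.74 [−2.84 to −2.64] and −2.24 [−2.27 to −2.21], or 6.69-fold and 4.72-fold. Gsta4, an enzyme that handles the lipid peroxidation product hydroxynonenal, was counted much less often. It went from 21.3 CPM [17.7 to 25.3] to 5.59 CPM [4.2 to 7.29] after a single dose, on 127 and 54 UMIs, and from 17.3 CPM [16.2 to 18.4] to 10.7 CPM [9.87 to 11.6] after repetitive dosing. Its log2 ratio was −1.76 [−2.18 to −1.34] after a single dose and −0.64 [−0.78 to −0.51] after repetitive dosing. With 10 in place of 1 CPM added, the ratio after a single dose was −1.004. The single-dose bleomycin level of Gsta4 was not above the 5.97 CPM of myeloid cells, on 3 UMIs, so the size of its ratio is uncertain.

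Of the mu class, Gstm1 after a single dose was counted at 1699 CPM [1666 to 1733] in the PBS library, and its level after bleomycin was 246.4 CPM [236.6 to 256.5]. After repetitive dosing it stood at 772 CPM [764.9 to 779.2] and 251.4 CPM [247.4 to 255.6]. Both bleomycin libraries lay below their PBS library, with log2 ratios of −2.78 [−2.85 to −2.72] and −1.61 [−1.64 to −1.59]. The tables of the experiments have different gene rows, so levels across them are set side by side only. The neighbouring gene Gstm2 moved less. It went from 398.3 to 213.9 CPM after a single dose and from 204.1 to 144.8 CPM after repetitive dosing, with log2 ratios of −0.89 and −0.49.

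Gstp1, of the pi class, also binds the Jun kinase. After a single dose PBS FBs had 1487 UMIs, an interval of 236.5 to 262.0 CPM, and bleomycin FBs 138.9 CPM [131.6 to 146.6]. After repetitive dosing its levels were 54.4 CPM [52.5 to 56.3] and 21.9 CPM [20.7 to 23.1], and the log2 ratios were −0.84 [−0.94 to −0.73] and −1.27 [−1.36 to −1.18]. Gstp1 was thus past 2-fold only after repetitive dosing, as Gsta4 was only after a single dose, and the difference between dosings was not tested. The repetitive bleomycin level of Gstp1 in FBs was not above the 24.2 CPM of T cells in that library, so the size of this ratio is uncertain.

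Of the theta class, whose members act on small halogenated compounds, Gstt1 went from 366.6 to 213.6 CPM after a single dose and from 196.5 to 148.5 CPM after repetitive dosing. Its log2 ratios were −0.78 [−0.86 to −0.69] and −0.40 [−0.44 to −0.36]. Gstt3 was the exception among the members. It stood at 18.9 CPM [15.6 to 22.8] and 17.1 CPM [14.6 to 19.9] after a single dose, intervals that overlap, and at 10.5 CPM [9.66 to 11.3] and 13.98 CPM [13.04 to 14.98] after repetitive dosing, where it was higher by a log2 ratio of 0.38 [0.24 to 0.53]. Gsto1, of the omega class, reduces dehydroascorbate and mixed disulfides and differs in this from most transferases. It went from 81.7 to 53.8 CPM after a single dose and from 31.8 to 18.7 CPM after repetitive dosing, with log2 ratios of −0.59 and −0.73.

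Of the membrane proteins, Mgst1, which also reduces lipid hydroperoxides, stood at 466.3 CPM in PBS and 285.9 CPM in bleomycin FBs after a single dose, and at 310 and 225.6 CPM after repetitive dosing. Its log2 ratios were −0.70 [−0.78 to −0.63] and −0.46 [−0.49 to −0.42]. Mgst3 stood at 40.4 and 29.8 CPM, then at 26.2 and 21.7 CPM, with log2 ratios of −0.42 [−0.67 to −0.18] and −0.26 [−0.36 to −0.15]. The members therefore spanned a range, with Gsta3 and Gstm1 lowest in both experiments and Mgst3 and Gstt3 closest to 0.

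**Figure D2:**
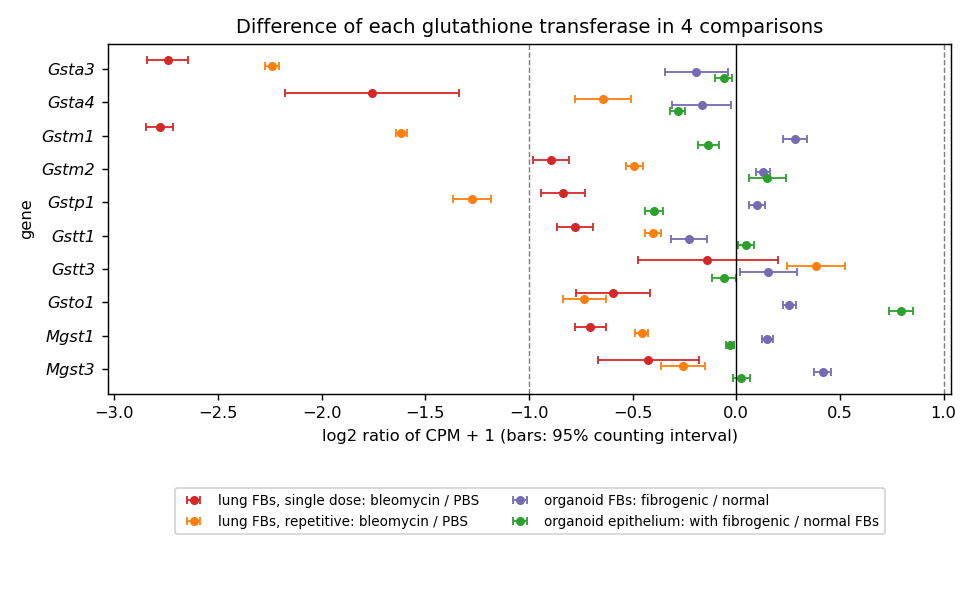
Log2 ratio of each transferase in 4 comparisons (bars 95% counting intervals, dashed lines 2-fold). In lung FBs Gsta3 and Gstm1 lie furthest left, from −2.78 to −1.61, while in organoids every point lies between −0.40 and 0.80.

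Barcodes of non-FB cells in the same sorts carried transferase UMIs too, which bears on low levels. In the repetitive PBS library Gsta3 stood at 199.7 CPM in T cells, 27.2% of its level in FBs, and Gstm1 at 32.8%. The FB genes Col1a1 and Pdgfra stood at 36.1% and 30.5% of their FB levels in the same T cells. Endothelial cells had higher shares of both transferases, 59.8% of the FB level for Gsta3 and 82.6% for Gstm1, against 39.4% for Col1a1, 56.5% for Pdgfra, 61.1% for Npnt and 60.2% for Tcf21. The share of Gsta3 was thus within the range of these FB genes, and that of Gstm1 above it. In the single-dose PBS library the endothelial shares were 68.1% for Gsta3 and 74.3% for Gstm1, against 30.6% to 80.8% for the same 4 FB genes. In the repetitive bleomycin library Gstm1 was above its FB level in endothelial (132%) and myeloid cells (110%), and Gsta3 stood at 67% and 44.6%. The 4 FB genes stood at 52.9% to 66.3% in those endothelial cells and at 39.9% to 47.7% in those myeloid cells. Other members passed their FB level in some non-FB cells. Gsto1 stood at 137% in T and 188% in myeloid cells after single-dose bleomycin, and at 129% and 211% after repetitive bleomycin. Mgst3 stood at 191% in myeloid and 284% in endothelial cells of the repetitive PBS library. Gstp1 stood at 110% in T cells after repetitive bleomycin, and Gsta4 at 107% in myeloid cells after single-dose bleomycin, on 3 UMIs. Low FB levels of these genes are therefore uncertain. Gstm2, Gstt1, Gstt3 and Mgst1 stayed below their FB level in lung T, myeloid and endothelial cells. Free RNA and FBs caught in the same droplets were not told apart, and their part in the levels of the non-FB cells was not tested.

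FB subsets were named from marker genes that did not include a transferase, so levels in them are a separate view of the same libraries. LipoFB-like cells made up 60.2% of PBS and 1.05% of bleomycin FBs after a single dose, and 83.2% and 3.28% after repetitive dosing. A single-dose cluster of 235 PBS and 2 bleomycin cells (FB4), led by Fos, Atf3, S100a8 and S100a9, was left unnamed because of its neutrophil genes, although 8 of 8 LipoFB markers counted for it. With it the single-dose shares would be 87.2% and 1.32%. Of the repetitive FBs, 2067 of 8253 lay in unnamed clusters after bleomycin and 238 of 5376 after PBS. Most were in FB1, with 38 PBS and 1821 bleomycin cells and a median of 1135 UMIs, which had 5 of 8 LipoFB and 4 of 7 InjuredFB markers but Sftpc and Scgb1a1 among its leading genes. With it the repetitive LipoFB-like shares would be 83.9% and 25.3%, and Gsta3 stood at 250.2 CPM and Gstm1 at 266.7 CPM in it. Clusters with markers such as Ltbp2, Hp, Sfrp1 and Eln, called InjuredFB-like, made up 66.3% and 32% of bleomycin FBs. The paper names some bleomycin clusters injured LipoFBs, and the InjuredFB-like cells may include them. LipoFB markers also counted for some of these clusters, 5 of 8 in repetitive FB11 and 4 of 8 in repetitive FB18. The LipoFB marker Ces1d was among the leading genes of single-dose FB2. The LipoFB-like shares are therefore not a measure of LipoFBs lost. Of the 503 InjuredFB-like cells after a single dose, 258 lay in cluster FB2 and 245 in cluster FB3. MatrixFB-like cells, with Pi16, Dcn and Ly6a, were found under both treatments, and myofibroblast-like (MyoFB-like) cells almost only after bleomycin.

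Against PBS LipoFB-like cells, bleomycin InjuredFB-like cells had 3 members at least 2-fold lower after a single dose (Gsta3, Gsta4 and Gstm1), where 3.17% of genes were, and 3 after repetitive dosing (Gsta3, Gstm1 and Gstp1), where 1.96% of genes were. Gsta3 went from 749.6 to 130.7 CPM and from 801.7 to 174.2 CPM in the respective experiments. Gstm1 went from 1728 to 254.1 CPM and from 768 to 196.3 CPM. After repetitive dosing, Gstp1 in InjuredFB-like cells, at 19.1 CPM, was not above the 24.2 CPM of T cells. Gstm1 there was above the 117.2 CPM of T cells but below the 275.5 CPM of myeloid cells. After a single dose, Gsta4 in InjuredFB-like cells, at 6.55 CPM, was close to the 5.97 CPM of myeloid cells. Both counts of 3 are therefore uncertain in part. The single-dose LipoFB-like clusters differed, with Gsta3 at 1088 CPM in FB1 and 382.3 CPM in FB6, which had the club cell gene Scgb1a1 among its leading genes. Without FB6, 6 members in place of 3 were lower, with Gstp1, Gsto1 and Mgst1 added. The share of all genes lower without FB6 was not counted, so the 6 cannot be set against it. The InjuredFB-like clusters of the single dose differed from each other in Gsta3, at 237.4 CPM in FB2 and 30.7 CPM in FB3 (between the 22.8 CPM of T cells and the 35.8 CPM of myeloid cells of that library), and in Gstm1, at 358.5 and 156.6 CPM. After repetitive dosing, 271 bleomycin cells still lay in LipoFB-like clusters, most in cluster FB8, while PBS cells lay mostly in FB3, FB4 and FB6. Over these clusters together, Gsta3, Gstm1 and Gstp1 were at least 2-fold lower than in PBS LipoFB-like cells (3 members, where 2.71% of genes were), with Gsta3 at 300.2 CPM [282.1 to 319.2] and Gstm1 at 364.8 CPM [344.8 to 385.6]. The clusters themselves differed, with Gsta3 at 1169 CPM in FB3, 933.9 CPM in FB4, 494.3 CPM in FB6 and 388.4 CPM in FB8, and Gstm1 at 896.2, 866, 569.8 and 594.3 CPM, so the spread of cells over clusters enters these ratios. Within FB8 (631 PBS and 162 bleomycin cells) Gsta3 went from 451.3 CPM [436.3 to 466.7] to 165 CPM [148.2 to 183.2] and Gstm1 from 660.8 to 358.2 CPM, log2 ratios of −1.45 and −0.88. There 2 members (Gsta3 and Gstp1) were at least 2-fold lower, where 2.75% of genes were. Within FB6, with 50 bleomycin cells, and FB3, with 35, these were Gstm1 and Gstp1 (where 4.11% and 10.6% of genes were), and the log2 ratios of Gsta3 were −0.76 and −0.28. Gstp1 there rested on 11 and 7 bleomycin UMIs, at 14.8 CPM [7.39 to 26.5] and 28.1 CPM [11.3 to 57.9]. In FB8 it stood at 19.7 CPM on 42 UMIs. T cells of that library had 24.2 CPM, so these Gstp1 ratios are uncertain.

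MyoFB-like cells had lower levels of most members. Against PBS LipoFB-like cells, 9 of 10 members were at least 2-fold lower in the single-dose experiment, where 13.1% of genes were, and 7 of 10 in the repetitive experiment, where 9.05% were. The 9 became 8 with the unnamed cluster FB4 counted as LipoFB-like, where Gstt3 was at −0.99. Without the LipoFB-like cluster FB6, Gsta4 and Gstt3 had too few UMIs to be counted. The share of all genes lower was not counted for either setting. Gsta3 stood at 11.8 CPM [7.02 to 18.7] in the 64 single-dose and 20.4 CPM [16.7 to 24.6] in the 547 repetitive MyoFB-like cells. Gstm1 stood at 52.6 CPM [41.7 to 65.5] and 79.9 CPM [72.4 to 87.9]. Both genes were lower there than in T cells of the same bleomycin libraries, which had 22.8 and 76.4 CPM of Gsta3 and 78.9 and 117.2 CPM of Gstm1, and than in myeloid cells, which had 35.8 and 69.03 CPM of Gsta3 and 93.5 and 275.5 CPM of Gstm1. The MyoFB-like levels of both are therefore read as background, and no fold is given. After a single dose 4 more were below T cells: Gstt1 (78.9 against 107 CPM), Mgst1 (100.6 against 115.7 CPM), Mgst3 (11.8 against 14.0 CPM) and Gstt3 (8.55 against 12.3 CPM). Gstm2 and Gstp1 were above T cells, but Gstm2, at 80.9 CPM, was not above the 81.5 CPM of myeloid cells. The single-dose count of 9 thus rests mostly on levels not above those of other cells. After repetitive dosing, Gsta4 (4.19 against 8.91 CPM) and Gstp1 (19.0 against 24.2 CPM) were below T cells too. Mgst1, at 148 CPM, was above T cells but below the 199.1 CPM of myeloid cells. Gstm2 (85.4 CPM) and Gstt1 (79.7 CPM) were above both but below the 116.2 and 96.6 CPM of endothelial cells. The repetitive count of 7 is therefore uncertain as well. Gsto1 was the member that stayed near the PBS LipoFB-like level in both experiments, at 98.7 against 87.3 CPM and 28.5 against 33.5 CPM, with log2 ratios of 0.17 [−0.11 to 0.46] and −0.22 [−0.46 to 0.01]. These MyoFB-like levels were above the 73.6 and 24.2 CPM of T cells but below the 101.4 and 39.5 CPM of myeloid cells. They are therefore not read as retained expression. Gsta4 rested on 1 UMI in the single-dose MyoFB-like cells, at 0.66 CPM. That is under the 1.97 CPM that 3 UMIs would give there, so no ratio is given.

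MatrixFB-like cells were numerous after both treatments. In PBS their Gsta3 level was lower than that of LipoFB-like cells, 136.9 CPM [103.7 to 177.4] against 749.6 CPM after a single dose and 177.9 CPM [166.4 to 190.0] against 801.7 CPM after repetitive dosing. These levels were not above the 202.9 and 199.7 CPM of T cells in the same libraries. Gstm1 was lower in them after a single dose, at 1417 against 1728 CPM, and higher after repetitive dosing, at 831 against 768 CPM. Within the single-dose MatrixFB-like cells, which formed 1 cluster of 70 PBS and 157 bleomycin cells, bleomycin over PBS gave 3 of the 6 members with enough UMIs at least 2-fold lower (Gsta3, Gstm1 and Gstp1), where 2.95% of genes were. Gstm1 went to 396.3 CPM, a log2 ratio of −1.84 [−2.01 to −1.66], and Gsta3 to 36.2 CPM. The repetitive MatrixFB-like cells formed 5 clusters, with 343 of the 620 PBS cells in FB9 and 220 in FB7, and 1213 of the 2560 bleomycin cells in FB5, 574 in FB7 and 349 in FB9. The leading genes of 2 of the 5 held no MatrixFB marker. FB16, with 112 bleomycin and 0 PBS cells, was led by Cd74, H2-Ab1, Lyz2 and Tyrobp, genes of antigen presentation and myeloid cells, and FB14, with 312 bleomycin and 35 PBS cells, had the mesothelial marker Wt1 among its leading genes. Treatments were therefore compared within FB7 and FB9, which held most of the PBS cells. FB5, with 22 PBS cells, and FB14, with 35, also held cells of both treatments but were not compared. Within FB7, Gstm1 went from 824.3 CPM [788.1 to 861.7] to 502.1 CPM [484.6 to 520.1] and Gsta3 from 109.7 to 72.4 CPM, log2 ratios of −0.71 and −0.59, and 1 of 10 members was at least 2-fold lower (Gstp1, from 60.96 to 25.8 CPM), where 1.45% of genes were. Within FB9, Gstm1 went from 880.9 CPM [842.5 to 920.6] to 428.4 CPM [392.5 to 466.6] and Gsta3 from 261.5 to 118.3 CPM, log2 ratios of −1.04 and −1.14, and these 2 members were at least 2-fold lower, where 7.62% of genes were. The median depth was 10318.5 UMIs in PBS and 10122 in bleomycin cells of FB7, and 5081 and 2347 in those of FB9. In the single-dose cluster and in FB7, Gsta3 was below the T cells or the myeloid cells, or close to them, under both treatments, so its ratios there are not read as a difference in expression. In FB9, Gsta3 was between the 199.7 CPM of T cells and the 290.1 CPM of myeloid cells in PBS. After bleomycin it was above their 76.4 and 69.03 CPM and near the 103.6 CPM of endothelial cells, so its ratio there is uncertain. Gstp1 after bleomycin was near T cells, at 25.8 against 24.2 CPM in FB7 and 111.1 against 98.2 CPM in the single-dose cluster. These Gstp1 ratios are uncertain too.

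**Figure D3:**
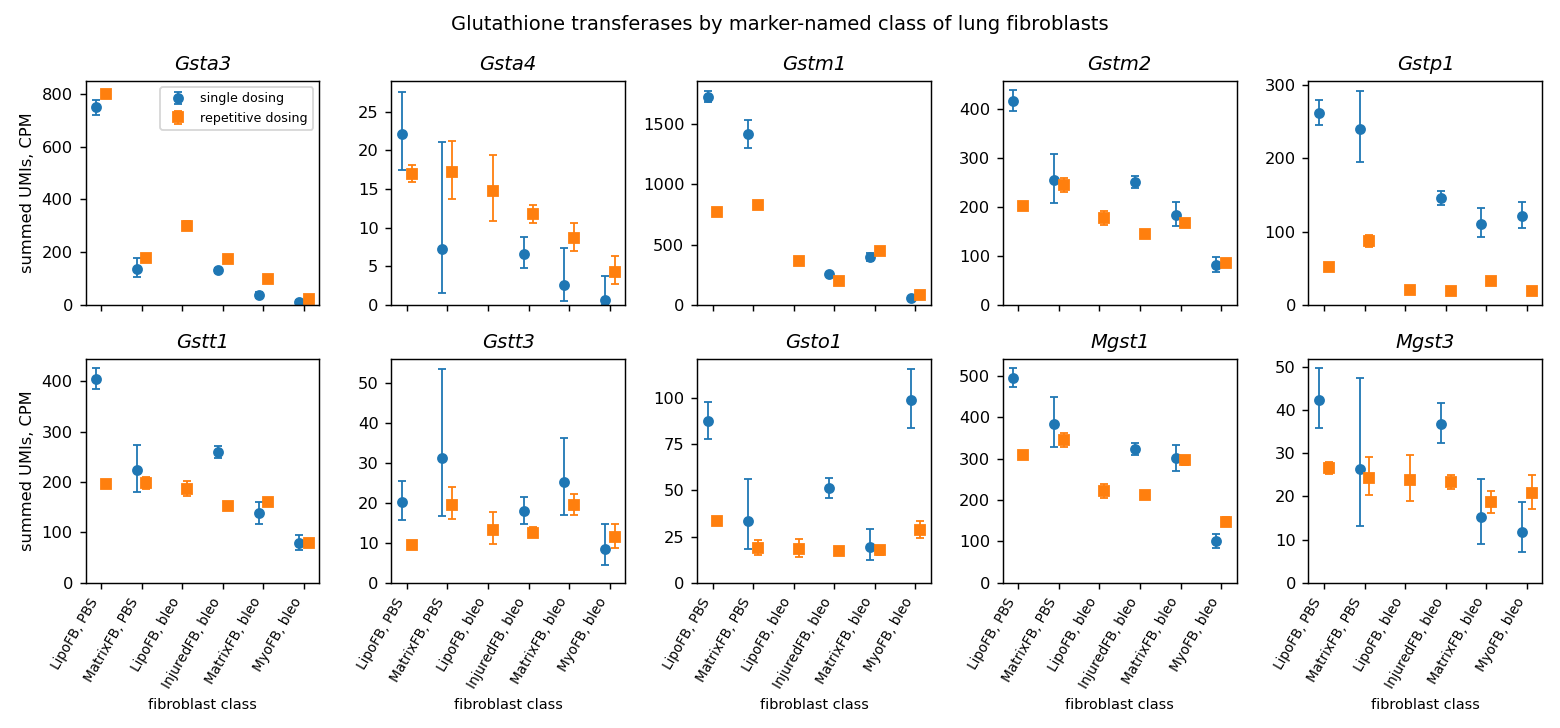
Level of each transferase (CPM, linear axis from 0, bars 95% counting intervals) in LipoFB-, InjuredFB-, MatrixFB- and MyoFB-like cells after PBS or bleomycin (bleo), circles single and squares repetitive dosing. The repetitive MatrixFB-like values include clusters FB14 and FB16. Gsta3 is highest in PBS LipoFB-like cells, at 749.6 and 801.7 CPM, while Gstm1 is also high in PBS MatrixFB-like cells, at 1417 and 831 CPM.

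Across the 25 lung FB clusters of at least 50 cells in both experiments, Gsta3 ranged from 13 to 1169 CPM and Gstm1 from 55.4 to 2176 CPM. Gstm2 and Gstt1 followed each other most closely of all member pairs (Pearson r = 0.95 of log2(CPM + 1)). Among 10083 other genes, those most like Gsta3 were Selenbp1, Aldh2 (mitochondrial aldehyde dehydrogenase) and Sh3bp5, with r of 0.94 each. Those most like Gstm1 were Tns2, Thbd and Slc29a1, with r of 0.91 to 0.92. Gsta4 was most like Mrln, Cyp27a1 and Tril, Gstm2 most like Gstt1, Fxyd1 and Rabac1, and Gstt1 most like Gstm2, Fth1 and Fxyd1. Gstp1 was most like Rpl37, Cdk2ap2 and Rps29, of which Rpl37 and Rps29 encode ribosomal proteins. For Gstp1 the r was 0.20 with Rpl37 and 0.45 with Rps29 over the 7 single-dose clusters, against 0.91 and 0.85 over the 18 repetitive ones. For the pairs of the other 9 members the r was 0.57 to 0.98 within the single-dose and 0.61 to 0.98 within the repetitive experiment. Gstt3 was most like Flywch2, Naprt and Reep4, and Gsto1 most like Kat5, Nelfe and Csdc2. Mgst1 was most like Rarres2, Hebp1 and Dpep1, and Mgst3 most like Amdhd2, Usp21 and Ppox. These correlations describe clusters that share 4 libraries and their depths, are not independent samples, and pool 2 experiments whose levels differ.

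The list used here holds 19 other transferases and relatives. After a single dose 10 of them had at least 50 UMIs, of which 5 were at least 2-fold lower (Gstm6, Gstm7, Gstp2, Gstt2 and Gstk1) and 0 higher, with a median log2 ratio of −0.81. After repetitive dosing 13 had enough UMIs, of which 2 were lower (Gstp2 and Gstk1) and 1 higher (Ltc4s), with a median of −0.17. The shares of all genes were those given above, 3.75% lower and 7.55% higher after a single dose and 1.84% and 6.58% after repetitive dosing. Centred on the median gene, 4 in place of 2 of all listed glutathione genes were lower after repetitive dosing. Gstk1, the kappa-class enzyme of mitochondria and peroxisomes, had the lowest ratio in both, from 87.1 to 27.5 CPM (log2 −1.63) and from 51.5 to 21.2 CPM (log2 −1.24). The highest were Ptges after a single dose, at 0.05, and Ltc4s, which makes a cysteinyl leukotriene, after repetitive dosing, at 0.29 and 3.7 CPM (log2 1.86). Ltc4s rested on 17 UMIs in PBS and 215 in bleomycin.

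Genes that make, recycle and use glutathione in other ways had medians nearer to 0 than the 10 members, a difference that was not tested. Of the genes for glutathione synthesis and cystine supply, 5 of 6 had enough UMIs after a single dose and 6 after repetitive dosing. Of these 0 were past 2-fold in either experiment, with medians of −0.09 and 0.01. Among all genes 3.75% were lower and 7.55% higher after a single dose, and 1.84% and 6.58% after repetitive dosing. A count of 0 among so few genes is near those shares. Gclc, the catalytic subunit of the rate-limiting enzyme, was the lowest in both, at log2 ratios of −0.52 and −0.95, and Gss the highest, at 0.41 and 0.28. Of 8 reductases and peroxidases, Gpx3 (the secreted peroxidase) was the lowest in both, from 7992 to 3843 CPM and from 1877 to 1041 CPM, with log2 ratios of −1.06 and −0.85. Gpx7, a peroxidase of the endoplasmic reticulum, was the highest, at 0.95 and 0.92. The medians of this group were 0.18 and 0.05.

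Of the genes for glutathione breakdown with enough UMIs, 3 after a single and 5 after repetitive dosing, Oplah was lowest after a single dose, at −0.17, and Ggt1 after repetitive dosing, at −0.59, and Ggct was highest in both, at 0.66. Of the genes for conjugate export and glyoxalases, 4 and 5 with enough UMIs, Hagh was lowest in both, at −0.53 and −0.47, and the exporter Abcc1 highest, at 0.45 and 0.29. Of the 6 genes of the Nrf2 axis, Nqo1 was lowest after a single dose, at −0.60, and Srxn1 after repetitive dosing, at −0.76. Heme oxygenase Hmox1 was highest, from 13.2 to 28.3 CPM after a single dose (log2 1.04) and at 0.50 after repetitive dosing. The medians of the Nrf2 axis were −0.05 and −0.18.

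In organoid FBs, of 10 members 0 were at least 2-fold lower and 0 higher with fibrogenic over normal FBs, where 0.742% of 15912 genes were lower and 0.277% higher. The median log2 ratio was 0.14. Mgst3 had the highest ratio, from 63.5 CPM [62.0 to 65.0] to 85.0 CPM [83.6 to 86.5], or 0.42 [0.37 to 0.46]. Gstm1 went from 35.4 to 43.3 CPM (log2 0.28) and Gsto1 from 108.1 to 129.2 CPM (log2 0.26). Gstt1 had the lowest ratio, from 15.4 to 12.99 CPM (log2 −0.23). With the mean of each cell's own CPM in place of summed UMIs, the ratio of Gsta3 went from −0.19 to 0.76, that of Gstm1 to 0.08 and that of Gsto1 to 0.0077, so these 3 depend on how cells are weighted.

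Set beside lung FBs, the organoid FBs had a different profile. Gsta3 stood at 3.79 CPM [3.43 to 4.17] in normal and 3.19 CPM [2.91 to 3.49] in fibrogenic organoid FBs, below the 11.8 to 801.7 CPM of the lung FB subsets with at least 20 cells. Gsta4 stood at 4.51 and 3.91 CPM, and Gstt3 at 4.42 and 5.03 CPM. Gsto1 and Mgst3 were above their levels in all 4 lung FB libraries, which ranged from 18.7 to 81.7 CPM for Gsto1 and from 21.7 to 40.4 CPM for Mgst3. The organoid FBs were cultured for 2 weeks and their marker levels differed as well. The 8 LipoFB markers summed to 535.1 and 367.0 CPM there, against 2762 to 9849 CPM in lung FBs, and the 6 MyoFB markers to 24300 and 17760 CPM, against 141.9 to 5444 CPM. Culture, medium and library cannot be told apart in these values. Of the organoid FBs 79.3% and 71.3% lay in clusters that met the rule for no named subset.

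Of the list of other glutathione genes, 0 of 46 with enough UMIs were past 2-fold in organoid FBs. Of all genes 0.742% were lower and 0.277% higher, so a count of 0 is near those shares. Gstm7 (−0.26) and Ltc4s (0.53) were the extremes among the other transferases, Slc3a2 (−0.10) and Cth (0.64) for synthesis, Glrx (−0.17) and Gpx1 (0.29) for reduction, Chac2 (−0.16) and Ggt1 (0.32) for breakdown, Abcc5 (−0.12) and Abcc4 (0.30) for export, and Keap1 (0.13) and Hmox1 (0.40) for the Nrf2 axis. The medians of the 6 groups lay between 0.07 and 0.23.

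In organoid epithelium, Gsto1 was the member with the largest difference. It stood at 51.8 CPM [50.2 to 53.4] in 1956 epithelial cells grown with normal FBs and 90.6 CPM [88.2 to 93.0] in 2154 grown with fibrogenic FBs, a log2 ratio of 0.80 [0.74 to 0.85]. Of the members 0 were at least 2-fold lower and 0 higher, where 0.128% of 14788 genes were lower and 0.237% higher, and the median was −0.05. Gstp1 went from 143.2 to 108.5 CPM (log2 −0.40 [−0.44 to −0.35]) and Gsta4 from 197.1 to 162 CPM (log2 −0.28). The levels of Mgst1 were 679.3 and 665.5 CPM, those of Mgst3 140.4 and 142.8 CPM, those of Gsta3 141 and 135.2 CPM and those of Gstt1 139.9 and 144.6 CPM. The other 3 members, Gstm1, Gstm2 and Gstt3, had log2 ratios of −0.13, 0.15 and −0.06.

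The epithelium was divided by markers into AEC2-like cells, cycling cells, alveolar type 1-like (AEC1-like) cells and cells like the pre-alveolar type 1 transitional state (PATS-like), through which AEC2s pass on their way to AEC1s. Gsto1 differed between these states. With normal FBs it stood at 17.96 CPM [16.8 to 19.2] in AEC2-like, 19.9 CPM in cycling, 73.9 CPM [67.8 to 80.3] in AEC1-like and 259.2 CPM [248.9 to 269.7] in PATS-like cells. With fibrogenic FBs it stood at 19.98 CPM [18.5 to 21.5], 24.0 CPM, 72.0 CPM [64.9 to 79.6] and 327.2 CPM [317.4 to 337.3]. AEC2-like and cycling cells lay close together, and PATS-like cells were 13.7-fold and 15.6-fold above AEC2-like cells. PATS-like cells made up 12.2% of epithelial cells with normal and 20.4% with fibrogenic FBs. Within the states, the log2 ratio of Gsto1 for fibrogenic over normal FBs was 0.15 in AEC2-like, −0.04 in AEC1-like, 0.25 in cycling and 0.34 in PATS-like cells, each smaller than the 0.80 over all epithelium. The PATS-like clusters differed in Gsto1, at 302.9 CPM in the larger, with a median of 42781 UMIs per cell, and 113.1 CPM in the other, with 1793. The latter held 45 of the 239 PATS-like cells with normal and 178 of the 439 with fibrogenic FBs. An unnamed epithelial cluster of 132 cells, with a median of 1161 UMIs and 4 of 7 PATS markers, had Gsto1 at 294.2 CPM. High Gsto1 was thus not limited to the cells named PATS-like. AEC2-like cells were also spread differently over their clusters, with 343 of 1152 in Epithelial4 and 102 in Epithelial2 with normal FBs, against 100 and 428 of 1191 with fibrogenic FBs.

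Most other members were lower in PATS-like cells. Over AEC2-like cells, 7 members were at least 2-fold lower and 1 higher with normal FBs, where 9.97% of genes were lower and 16.9% higher. With fibrogenic FBs the counts were 7 and 1, where 10.2% of genes were lower and 14.5% higher. Gstt1 went from 157.2 CPM in AEC2-like to 18.4 CPM in PATS-like cells with normal FBs and from 183.6 to 19.7 CPM with fibrogenic FBs, or 8.15-fold and 8.91-fold lower. Gsta3 went from 145.1 to 17.2 CPM and from 159.7 to 23.3 CPM. Mgst1 went from 818.5 to 243.3 CPM and from 847.4 to 291.4 CPM. Mgst3 was higher, but less than 2-fold, at 134.4 and 180.9 CPM with normal and 123.5 and 214.8 CPM with fibrogenic FBs.

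AEC1-like cells kept Gsta3 and differed in other members. With normal FBs, 2 members were at least 2-fold lower than in AEC2-like cells (Gstp1 and Mgst1), where 7.27% of genes were, and 2 were higher (Gstm2 and Gsto1), where 8.62% of genes were. With fibrogenic FBs 3 were lower (Gstm1, Gstp1 and Mgst1), where 8.81% of genes were, and 2 higher (again Gstm2 and Gsto1), where 7.38% were. The mean of each cell's own CPM gave 1 lower in place of 3. Gstm2 went from 23.4 to 52.2 CPM and from 27.8 to 68.1 CPM. It stood at 60.5 CPM in the AEC1-like cluster with a median of 31619 UMIs per cell and at 14.9 CPM in the other, with 1779, which held 134 of the 272 AEC1-like cells with fibrogenic FBs and 19 of the 225 with normal FBs. Without the latter cluster Gstm2 stood at 52.3 and 73.2 CPM. Gsta3 was 258.3 CPM in AEC1-like against 145.1 CPM in AEC2-like cells with normal FBs, and 204.4 against 159.7 CPM with fibrogenic FBs. In the same libraries Gsta3 in FBs was at 3.79 and 3.19 CPM. Sftpc, the AEC2 marker, was at 310.8 and 337.0 CPM in the organoid FBs, against 68200 and 60990 CPM in the epithelium.

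**Figure D4:**
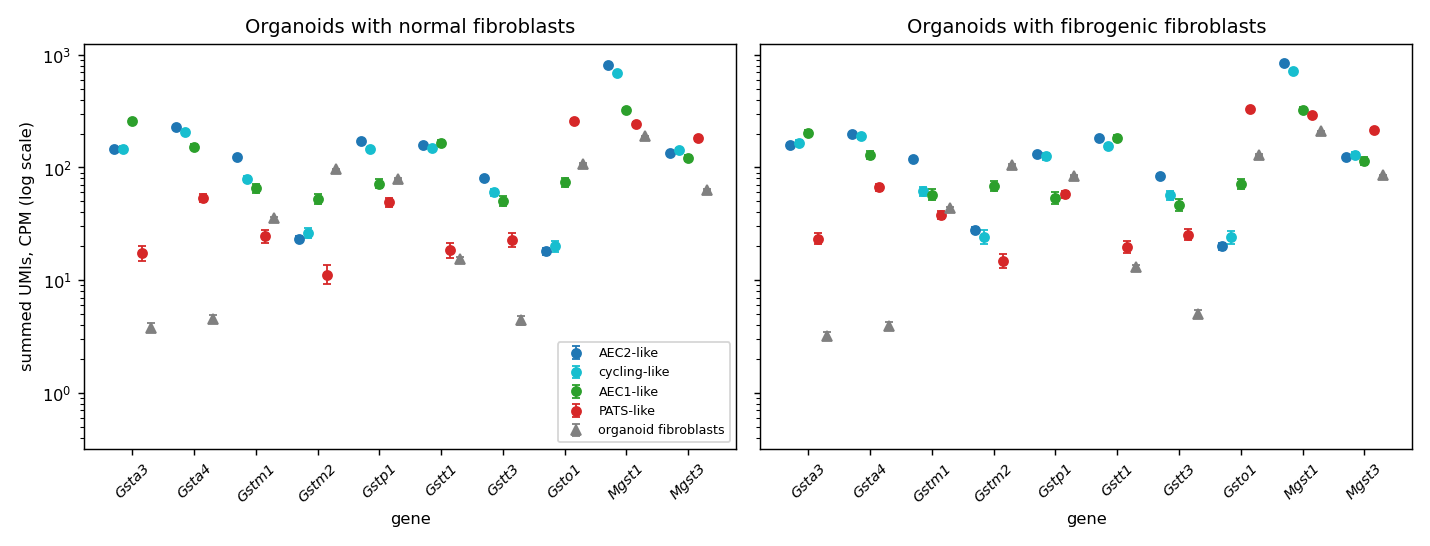
Level of each transferase (CPM, log scale, bars 95% counting intervals) in AEC2-, cycling, AEC1- and PATS-like epithelial cells and in FBs of organoids with normal (left) or fibrogenic FBs (right). Of the states shown, Gsto1 is highest in PATS-like cells, at 259.2 and 327.2 CPM. Gsta3 and Gstt1 are lower there than in the other epithelial states shown.

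Among the other glutathione genes in the epithelium, 0 of 46 with enough UMIs were past 2-fold between the libraries. Of all genes 0.128% were lower and 0.237% higher, so a count of 0 is near those shares. Slc7a11, the cystine transporter, had the lowest ratio of the synthesis genes, from 58.3 to 33.7 CPM (log2 −0.77), and Slc3a2 the highest, at 0.20. Gstt2 (−0.34) and Gsto2 (0.36) were the extremes of the other transferases, Glrx (−0.24) and Gpx3 (0.30) of reduction, Ggt5 (−0.60) and Chac1 (0.33) of breakdown, Abcc4 (−0.33) and Abcc1 (0.29) of export, and Srxn1 (−0.13) and Hmox1 (0.30) of the Nrf2 axis.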

How the data were processed

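The authors aligned and counted reads with Cell Ranger 3.0.1 (mm10; the submitters' processing notes also name Seurat 3), and deposited raw UMI counts per gene symbol and barcode, 1 library per condition. Gene positions are from Gencode M21 on GRCm38. Counts of both libraries of an experiment were clustered together in Python 3.11.15 (numpy 2.4.6, scipy 1.17.1, pandas 2.3.3, scikit-learn 1.9.0, igraph 0.11.9; 2000 variable genes, 30 components, 20 neighbours, Leiden resolution 1), with all glutathione genes left out. Barcodes whose mitochondrial share exceeded the median of their cluster by over 3 scaled median absolute deviations, or with over 0.5% erythrocyte UMIs, and clusters above 25% or 0.5%, were removed (42 to 970 per library). In lung libraries, 17 to 46 barcodes had no lineage, and in organoids 806 and 2030. A further 45 and 474 organoid barcodes in clusters led by genes of another lineage were left out. Names needed at least 3 markers and 50% of a list. Doublets were not removed. UMIs were summed per group, and genes with at least 50 UMIs over both groups were counted at 2-fold. With 1 library per condition no test was made. Named genes were the members, the highest and lowest of each group of other glutathione genes, and the 3 genes most correlated with each member (at least 500 UMIs). Genes counted as past 2-fold were named as well, after their values were seen. Members, lists and rules were chosen with earlier results of these data known. Alternatives were other resolutions (0.5 and 2), gates, filters, pseudocount, centring and minimum UMIs. The ratios, 2-fold calls and counting intervals were tested on simulated counts with counting error only. That simulation had no spread between mice and left out the clustering and naming of cells.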

Additional observations from a re-analysis of the deposited data

Results flagged for a closer look

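In the organoids, 5 members had log2 ratios of opposite sign in FBs and in epithelium of the same libraries (fibrogenic over normal), with counting intervals that did not reach 0. The ratio in FBs and in epithelium was 0.28 and −0.13 for Gstm1, 0.10 and −0.40 for Gstp1, −0.23 and 0.047 for Gstt1, 0.15 and −0.06 for Gstt3, and 0.15 and −0.03 for Mgst1. None of these reached 2-fold, and the difference between FBs and epithelium was not tested, since each condition had 1 library. The share of all genes that met the same rule is not given here, and with this many UMIs small ratios clear a counting interval. The median log2 ratio of all genes was −0.009 in FBs and 0.041 in epithelium, so the 0.047 of Gstt1 in epithelium was close to it. Under the 11 alternative settings that keep FBs and epithelium apart, the ratio changed sign for Gstp1 in FBs (with the mean of each cell's own CPM) and for Mgst1 in epithelium (with barcodes gated singly), and for no other of these 10 ratios.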

How the results depend on the processing

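No paired analysis was possible because each condition had 1 library. Of the counts of members or genes past 2-fold, recomputed under the alternatives, 157 stayed within 1.5 times the reported count, and 3 did not. In repetitive-dose FBs, centring on the median gene gave 4 other glutathione genes at least 2-fold lower in place of 2. In AEC1-like over AEC2-like cells with fibrogenic FBs, the mean of each cell's own CPM gave 1 member lower in place of 3. In single-dose InjuredFB-like over PBS LipoFB-like cells, leaving out the LipoFB-like cluster FB6 gave 6 in place of 3, with no share of all genes counted. The cause was not tested. Of the single values, 452 stayed within their counting interval or, for medians, within 0.25, 87 moved further, and 0 of those past 2-fold changed sign. In lung FBs the log2 ratio ranged from −2.80 to −2.42 (single) and −2.35 to −2.04 (repetitive) for Gsta3, and from −2.84 to −2.57 and −1.79 to −1.48 for Gstm1. It ranged from −1.91 to −1.004 for Gsta4 after a single dose and from −1.38 to −1.01 for Gstp1 after repetitive dosing. Among lung members only Gstt3 after a single dose changed sign, from −0.31 to 0.28. In organoids, over the 11 settings that keep FBs and epithelium apart (every deposited barcode pools them), the sign turned for Gsta3, Gsta4, Gstm2 and Gstp1 in FBs, each only with the mean of each cell's own CPM, and for Gsta3, Mgst1 and Mgst3 in epithelium. Keeping mixed organoid clusters, leaving out the largest repetitive cluster with its few UMIs, the MatrixFB-like clusters FB14 and FB16, the LipoFB-like cluster FB6 or the AEC1-like cluster of few UMIs, and counting the unnamed single-dose cluster FB4 or repetitive cluster FB1 as LipoFB-like, were added after seeing the data, as were the values within clusters. Counting FB4 gave 8 in place of 9 members lower in single-dose MyoFB-like cells. Leaving out FB6 left Gsta4 and Gstt3 with too few UMIs to be counted in that comparison. Depth limits Gsta4, Gstt3 and Mgst3, which had under 300 UMIs per single-dose group.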
